A study of Homo sapiens with 4 samples.

Results

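The genes described here are 44 genes of mitosis and the G2/M phase, which encode mitotic cyclins and kinases, spindle checkpoint and kinetochore proteins, kinesins, condensin subunits and the proliferation marker MKI67. They were listed by name, with no measured value in the rule. A gene was taken as measured where the platform's probe annotation gave its symbol, alone, to at least 1 feature. This held for 43 of the 44 genes, through 99 of the 45220 array features, among 18334 genes measured in all. UBE2C was not analysed here. Cells of the line HEK293T, derived from human embryonic kidney and expressing the SV40 large T antigen, were transfected with a plasmid for a CHD6 siRNA or with a plasmid for a control siRNA, grown in DMEM with bovine serum, and harvested at 48 h. Both groups therefore carried an siRNA plasmid, and no group without one was compared. CHD6 is an ATP-dependent chromatin remodeler, and the comparison asked which transcripts differed when it was targeted. Each of the 4 arrays hybridised a CHD6 siRNA sample directly against a control siRNA sample, with the CHD6 siRNA sample in Hy5 on 2 arrays (replicates 2 and 4, called the Hy5 arrays) and in Cy3 on the other two (replicates 1 and 3, the Cy3 arrays). Nothing in the labels says whether each array had its own culture, so a p-value here reflects array-to-array spread only, and that spread may be technical.

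Entry into mitosis is driven by CDK1 bound to cyclin A or cyclin B, which CDC25 phosphatases activate. Condensin and topoisomerase II then compact the chromosomes, kinesins and kinetochores attach and move them, and the spindle checkpoint holds back the anaphase-promoting complex until every chromosome is attached. Most of these genes are transcribed late in the cell cycle from promoters that share a cell cycle genes homology region (CHR) and CCAAT boxes. The CHR is bound by the MuvB core, either in a repressor (DREAM) or with the activators B-MYB and FOXM1, and CCAAT boxes are bound by NF-Y.

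Values are log ratios, taken as log2 of CHD6 siRNA over control siRNA. The base is an assumption and the direction is likely but not settled. The direction rests on the array titles, which name the siRNA first. Arrays of opposite dye correlated at -0.84 to -0.68 over all features, and arrays of the same dye at 0.80 and 0.79. If the columns were instead Hy5 over Cy3, the Cy3 arrays would have to be turned in sign. Each gene is therefore given by its mean log ratio over the 4 arrays and by its dye component. The dye component is the mean of the Hy5 arrays minus the mean of all 4, on the log2 scale. It is also what the mean log ratio would be with the arrays turned by dye. Which of the readings holds was not tested. CHD6 itself, averaged over its 3 features, was at -0.43 and -0.65 on the Hy5 arrays and -0.42 and -0.28 on the Cy3 arrays. All 4 arrays were below 0, with a mean of -0.45 ± 0.15 (SD, n = 4) and a limma adjusted p of 0.134, or -0.095 turned. Its features disagreed: feature 27564 had a mean of -1.15 and was called among all features (adjusted p = 0.0339), with -1.21 and -1.42 on the Hy5 arrays and -1.13 and -0.85 on the Cy3 arrays, while features 1672 and 36130 had means of -0.015 and -0.17 and were not called. Taken with the titles' direction, CHD6 was lower in the siRNA sample at 1 of the 3 features tested. Ratios carry no level, so the labelled cell type could not be checked against markers. The 7 measured immune cell markers had a median log ratio of 0.047 and the 7 fibroblast markers one of 0.019, with 0 called. CD68 was at 0.16 (0.18 turned) and CD3E at -0.12 (0.21), and PDGFRA was at 0.20 (-0.17) and LUM at 0.096 (-0.13). Turned by dye, 2 of the 7 markers in each list (28.6%) would pass as higher, against 26.9% of all genes, and 0 as lower, against 18.0%.

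As a group, the mitosis and G2/M genes had log ratios near 0. Their median mean log ratio was 0.0025, against -0.0025 over all genes, with 22 of the 43 above 0 and 21 below. Their SD over genes was 0.13, against 0.12 for all genes. The means ran between -0.46 (MKI67) and 0.32 (INCENP). On the Hy5 arrays the members' medians were 0.035 and -0.034, and on the Cy3 arrays they were 0.06 and -0.01. Over all genes the medians were 0.05 and 0.03 on the Hy5 arrays and -0.05 and -0.04 on the Cy3 arrays.

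None of the 43 passed limma with the dye orientation as a coefficient and Benjamini-Hochberg adjustment over all 18334 genes. That fit called 4 genes (0.0218%), and the smallest adjusted p among the mitosis genes was 0.198, for MKI67. At an unadjusted p under 0.05 there were 4 of 43 (9.30%), against 9.37% of all genes. In a limma fit with the intercept alone, 0 of 43 passed (every adjusted p was 1), against 0.00% of all genes, and 1 of 43, MKI67, had an unadjusted p under 0.05, against 1.32%. By sign, 2 members were above 0 on all 4 arrays and 2 below, against 3.56% and 3.50% of all genes. The unadjusted 95% interval of the mean extended by a median of 0.18 on either side. For 40 of the 43 genes it lay wholly within 0.5 of 0, which is a 1.41-fold ratio. The 3 others were MKI67, INCENP and NDC80.

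**Figure D1:**
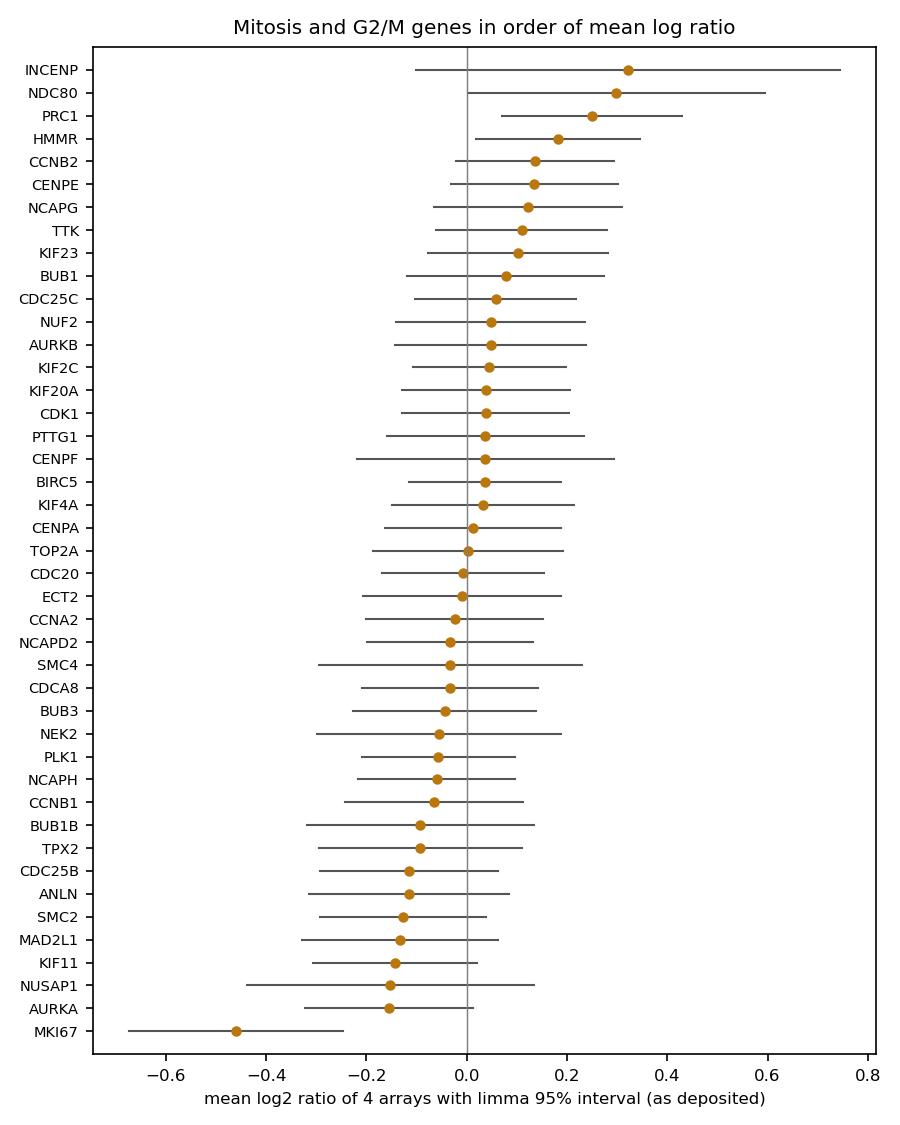
Mean log2 ratio of the 4 arrays for each of the 43 genes (points, horizontal axis) with the unadjusted limma 95% interval (lines), in order of the mean. The interval excludes 0 for 4 genes, MKI67 below and HMMR, PRC1 and NDC80 above, and none of them passed adjustment over all genes.

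The dye component of the same genes was larger, and ran in both directions. Its SD over the members was 0.43, against 0.38 over all genes, and its median 0.028, against 0.034. Turned by dye, with dye orientation in the fit, 12 of 43 members would pass as higher (27.9%, against 26.9% of all genes) and 13 as lower (30.2%, against 18.0%). Those counts would be 8 and 6 without replicate 1, 13 and 12 without replicate 2, 8 and 9 without replicate 3, and 10 and 8 without replicate 4. The shares of all genes passing in these fits are not given here, so a drop need not be particular to the members. Without empirical Bayes moderation, which leaves 2 degrees of freedom per gene, the members' counts would be 0 and 0, with 5 genes (0.0273%) called over all genes. With the intercept alone the turned counts would be 12 higher and 11 lower, against 25.5% and 16.5% of all genes. In signs, 13 members would be above 0 on all 4 turned arrays and 13 below, against 31.3% and 21.3%. In either reading the members did not share 1 direction. In these bulk samples, a change in the share of cells in G2 or mitosis and a change in RNA per cell could not be told apart.

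**Figure D2:**
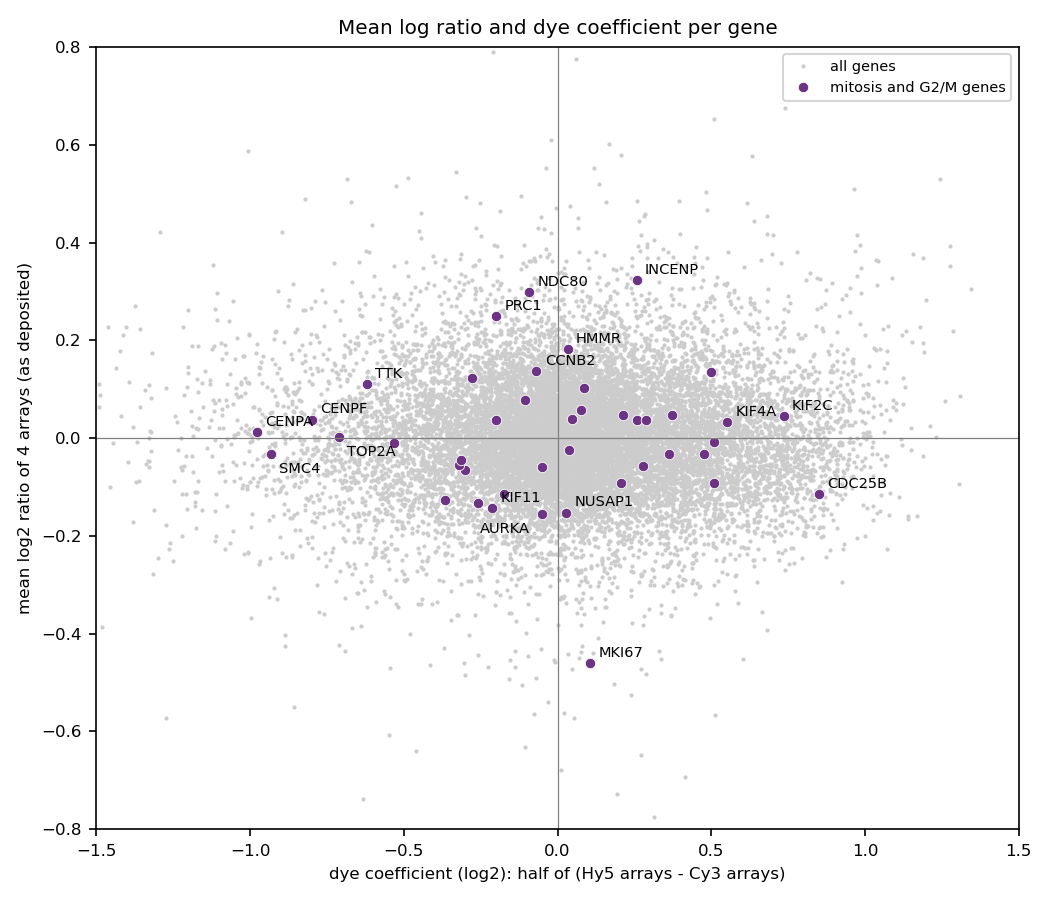
Dye component (horizontal axis, log2) against mean log2 ratio of the 4 arrays (vertical axis) for all genes (grey) and the 43 mitosis and G2/M genes (purple), with 49 genes beyond the axes. The members spread from -0.98 to 0.85 along the dye component and, apart from MKI67, from -0.16 to 0.32 along the mean.

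The promoters of 6 members are printed to show where the CHR and CCAAT letters lie, or are missing, in genes whose values differ. MKI67, HMMR and CCNB2 had 1 sign on all 4 arrays, the features of PLK1 disagreed, and CENPA and KIF2C had dye components far below and far above 0. The windows run from 250 bases before to 50 after the RefSeq start (GRCh38.p14), 5′ to 3′ on the gene's strand. Capitals mark the CHR letters TTTGAA and the CCAAT box letters CCAAT, each on either strand (TTCAAA and ATTGG in reverse).
MKI67, chr10:128126374-128126673, minus strand: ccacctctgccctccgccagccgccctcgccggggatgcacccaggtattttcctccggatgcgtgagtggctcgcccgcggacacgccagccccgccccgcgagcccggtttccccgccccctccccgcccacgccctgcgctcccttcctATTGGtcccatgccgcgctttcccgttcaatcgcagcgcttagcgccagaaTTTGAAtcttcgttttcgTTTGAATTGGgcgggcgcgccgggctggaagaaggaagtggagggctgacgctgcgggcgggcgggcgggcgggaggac
HMMR, chr5:163460382-163460681, plus strand: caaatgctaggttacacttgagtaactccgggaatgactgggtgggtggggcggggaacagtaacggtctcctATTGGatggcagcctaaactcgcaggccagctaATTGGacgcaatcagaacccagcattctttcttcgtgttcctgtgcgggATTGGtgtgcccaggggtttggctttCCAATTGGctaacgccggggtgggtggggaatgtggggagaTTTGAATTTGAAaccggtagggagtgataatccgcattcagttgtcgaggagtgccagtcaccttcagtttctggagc
CCNB2, chr15:59104896-59105195, plus strand: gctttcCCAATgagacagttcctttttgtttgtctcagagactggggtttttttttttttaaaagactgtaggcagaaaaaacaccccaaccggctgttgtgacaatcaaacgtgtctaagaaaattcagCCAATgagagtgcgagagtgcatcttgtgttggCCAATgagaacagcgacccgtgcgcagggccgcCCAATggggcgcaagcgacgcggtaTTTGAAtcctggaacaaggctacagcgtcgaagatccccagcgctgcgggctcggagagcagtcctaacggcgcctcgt
PLK1, chr16:23678639-23678938, plus strand: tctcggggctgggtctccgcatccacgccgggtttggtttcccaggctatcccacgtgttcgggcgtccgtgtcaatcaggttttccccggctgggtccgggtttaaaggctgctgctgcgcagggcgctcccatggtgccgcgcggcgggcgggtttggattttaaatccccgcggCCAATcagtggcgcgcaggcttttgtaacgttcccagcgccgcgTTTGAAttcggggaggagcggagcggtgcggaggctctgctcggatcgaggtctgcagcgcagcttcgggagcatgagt
CENPA, chr2:26785806-26786105, plus strand: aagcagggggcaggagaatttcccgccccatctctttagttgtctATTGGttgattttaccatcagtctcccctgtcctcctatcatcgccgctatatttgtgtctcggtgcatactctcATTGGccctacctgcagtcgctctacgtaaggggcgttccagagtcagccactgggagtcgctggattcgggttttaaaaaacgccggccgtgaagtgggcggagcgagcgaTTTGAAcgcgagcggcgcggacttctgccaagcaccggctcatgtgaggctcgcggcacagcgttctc
KIF2C, chr1:44739587-44739886, plus strand: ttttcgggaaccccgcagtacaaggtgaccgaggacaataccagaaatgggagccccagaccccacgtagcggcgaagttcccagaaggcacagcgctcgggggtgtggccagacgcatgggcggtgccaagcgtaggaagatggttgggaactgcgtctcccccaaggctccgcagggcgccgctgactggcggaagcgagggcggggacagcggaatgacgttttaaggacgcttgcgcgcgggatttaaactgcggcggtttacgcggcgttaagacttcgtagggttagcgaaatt

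Of these 6 windows, 5 held both elements. The CHR letters began at -29 in CCNB2 and PLK1, at -18 in CENPA, at -47 and -29 in MKI67 and at -28 and -22 in HMMR, counted from the first transcribed base as 1 with no 0. In MKI67 the CHR at -29 runs directly into a CCAAT box on the other strand that shares 1 base with it, and in HMMR the CCAAT boxes at -69 and -66 overlap. CCNB2 held 4 CCAAT boxes, HMMR 5, and PLK1 1. The KIF2C window held neither set of letters, which says only that they are not in this window. RefSeq windows were found for 38 of the 44 members, in 50 windows since some genes have several starts. TTTGAA was in 30 of the 50 (60.0%), against 15.2% of all 35116 windows, and CCAAT in 34 (68.0%), against 34.6%. Both were in 22 of the 50 (44.0%), against 5.9%. By gene, 27 of 38 members had a CHR match. Their median mean log ratio was 0.0025, against 0.038 for the 11 without one, and their median dye component -0.069, against 0.047. A match is a description of letters and not a site in use.

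**Figure D3:**
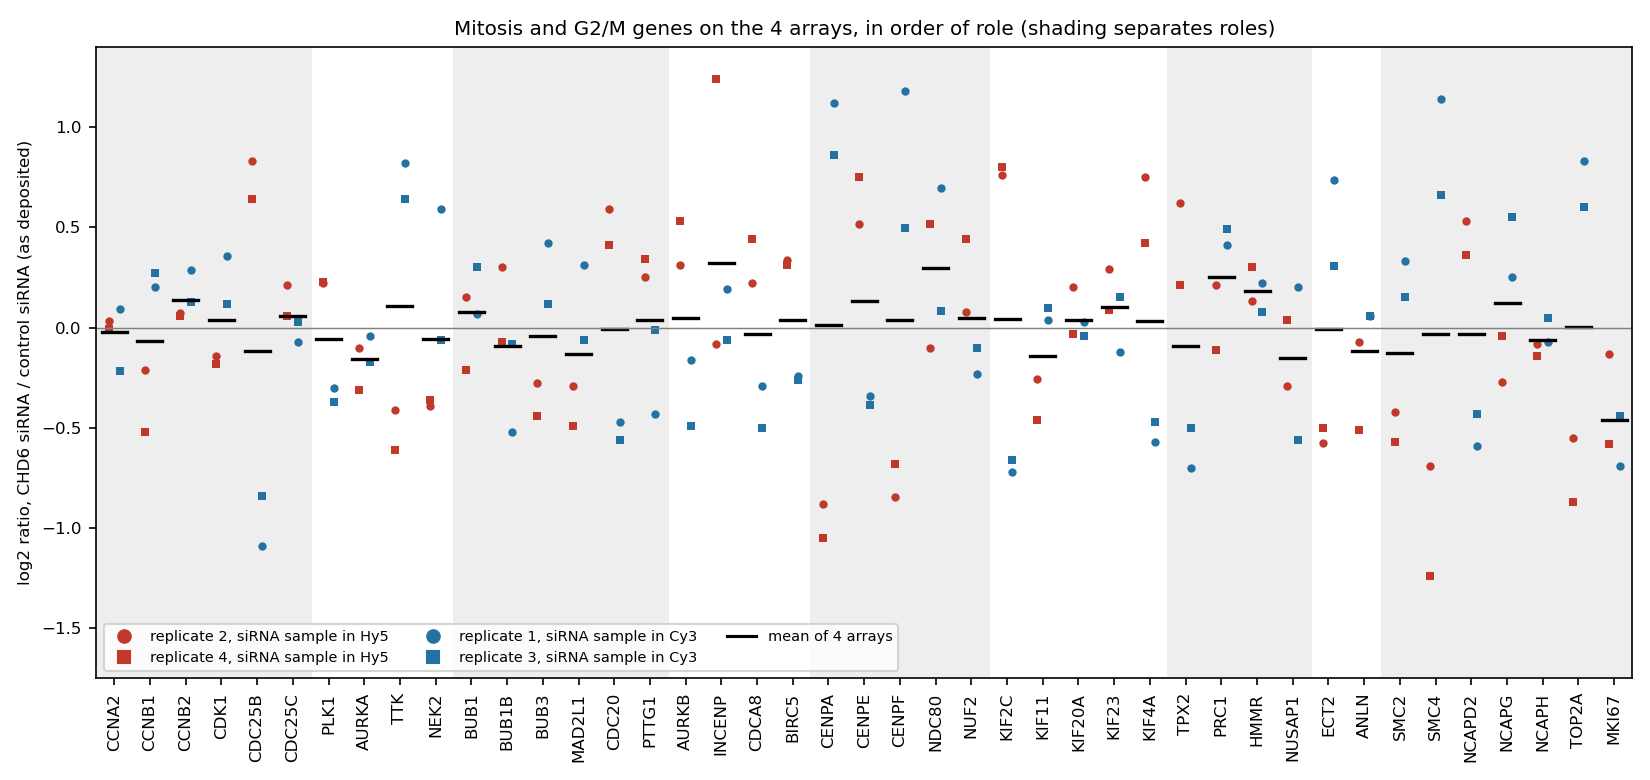
Log2 ratio (vertical axis) of the 43 genes on each array, in order of role, with the Hy5 arrays in red, the Cy3 arrays in blue and the mean of the 4 as a black bar. Most genes with large values, such as CENPA, SMC4, CDC25B and KIF2C, lie on opposite sides of 0 on the red and blue arrays, while all 4 points of MKI67 and AURKA lie below 0 and all 4 of HMMR and CCNB2 above.

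MKI67 lay farthest from 0. It encodes Ki-67, a coat protein of mitotic chromosomes that marks cycling cells. Its log ratios were -0.13 and -0.58 on the Hy5 arrays and -0.69 and -0.44 on the Cy3 arrays. All 4 arrays were below 0, with replicate 2 nearest to it. The mean was -0.46 ± 0.24 (SD, n = 4), 72.7% of control, with a limma 95% interval of -0.67 to -0.25. It ranked 32 from the lowest of 18334 genes, with an unadjusted p of 0.00117 and an adjusted p of 0.198, so it did not pass. Leaving out 1 array gave fitted means of -0.57 to -0.35, with both dye orientations weighed alike. Turned by dye, MKI67 would be at 0.11 (adjusted p = 0.412). MKI67 rests on 1 feature, so no other probe could be set beside it.

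The members that act beside Ki-67 on mitotic chromosomes did not share its value. TOP2A, the topoisomerase that untangles sister DNA, was at -0.55 and -0.87 on the Hy5 arrays and 0.83 and 0.60 on the Cy3 arrays. The orientations did not overlap, and its mean was 0.0025 and its dye component -0.71 (limma adjusted p = 3.36e-04). Signs split in this way, below 0 on both Hy5 arrays and above 0 on both Cy3 arrays, in 21.3% of all genes. SMC4, one of the condensin ATPases, was at -0.69 and -1.24 on the Hy5 arrays and 1.14 and 0.66 on the Cy3 arrays, again with no overlap, for a mean of -0.033 and a dye component of -0.93. Its partner SMC2 had a mean of -0.13 and a dye component of -0.37. The condensin I subunits differed in sign between themselves: NCAPD2 was at -0.033 with a dye component of 0.48, NCAPG at 0.12 with -0.28, and NCAPH at -0.06 with -0.05. Turned by dye, SMC2, SMC4, NCAPG and TOP2A would pass as lower, against 18.0% of all genes, and NCAPD2 as higher, against 26.9%. NCAPH would not pass (limma adjusted p = 0.606). In that reading these values did not share 1 direction. Each of these genes rests on 1 feature, and whether complex partners differed was not tested.

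Among the cyclins and the CDK1 module, means lay between -0.12 and 0.14 and 0 of 6 passed. CCNB2, cyclin B2, was above 0 on every array, at 0.075 and 0.06 on the Hy5 arrays and 0.29 and 0.13 on the Cy3 arrays. The mean was 0.14 ± 0.10 (SD, n = 4) with an adjusted p of 0.592, and turned by dye it would be at -0.069. Its features gave means of 0.19 and 0.085, and only the first was above 0 on all 4 arrays. CCNB1, cyclin B1, had a mean of -0.065, with -0.21 and -0.52 on the Hy5 arrays and 0.20 and 0.27 on the Cy3 arrays. Both Hy5 arrays were below 0 and both Cy3 arrays above, as in 21.3% of all genes. Turned, CCNB1 would pass as lower (-0.30, limma adjusted p = 0.0137). CDK1, the mitotic kinase itself, was at 0.038 with a dye component of -0.20 (adjusted p = 0.0548), and CCNA2, cyclin A2, at -0.024 with 0.037. CDC25B, a phosphatase that activates CDK1, had the highest dye component of all members. It was at 0.83 and 0.64 on the Hy5 arrays and -1.09 and -0.84 on the Cy3 arrays, a mean of -0.12 and a dye component of 0.85 (adjusted p = 1.46e-04), and would be 1.80-fold higher turned by dye. Its relative CDC25C was at 0.058 with 0.078.

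The mitotic kinases also gave no call. AURKA, the Aurora kinase of centrosomes and spindle poles, was below 0 on each array, at -0.10 and -0.31 on the Hy5 arrays and -0.04 and -0.17 on the Cy3 arrays. Its mean was -0.16 ± 0.12 (SD, n = 4), with an unadjusted p of 0.0651 and a limma adjusted p of 0.559, and its dye component -0.05. PLK1, which acts from mitotic entry to cytokinesis, had a mean of -0.056 and a dye component of 0.28 over features that disagreed, given below. TTK, the checkpoint kinase MPS1, was at -0.41 and -0.61 on the Hy5 arrays and 0.82 and 0.64 on the Cy3 arrays. Both Hy5 arrays were below 0 and both Cy3 arrays above, as in 21.3% of all genes. The mean of TTK was 0.11 and its dye component -0.62 (limma adjusted p = 3.77e-04). NEK2, a kinase that separates centrosomes, had a mean of -0.055 and a dye component of -0.32.

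Spindle checkpoint genes and those of the anaphase-promoting complex lay close to 0 in the mean. The checkpoint kinase BUB1 was at 0.078, its relative BUB1B (BubR1) at -0.093, BUB3, which anchors both at kinetochores, at -0.044, and MAD2L1, the inhibitor that binds CDC20, at -0.13. CDC20, the activator that the checkpoint restrains, had a mean of -0.0075 with 0.59 and 0.41 on the Hy5 arrays and -0.47 and -0.56 on the Cy3 arrays. PTTG1, securin, whose destruction releases separase, was at 0.038. The smallest adjusted p of these 6 was 0.686. Turned by dye, CDC20 (0.51) and PTTG1 (0.26) would pass as higher and BUB3 (-0.31) and MAD2L1 (-0.26) as lower, against 26.9% and 18.0% of all genes. BUB1 (-0.11) and BUB1B (0.21) would not pass. With the intercept alone MAD2L1 would not pass either (adjusted p = 0.0598).

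The chromosomal passenger complex joins the kinase AURKB to INCENP, survivin (BIRC5) and borealin (CDCA8), and corrects faulty kinetochore attachments. The dye components were 0.37 for AURKB, 0.36 for CDCA8, 0.29 for BIRC5 and 0.26 for INCENP. Turned by dye, the first 3 would pass as higher, against 26.9% of all genes. Without replicate 3 none of the 3 would pass (adjusted p = 0.0847 for AURKB, 0.0729 for CDCA8 and 0.0640 for BIRC5). In the mean, AURKB was at 0.048, CDCA8 at -0.033 and BIRC5 at 0.037. INCENP had the highest mean of all members, at 0.32 ± 0.62 (SD, n = 4), but its values were -0.08 and 1.24 on the Hy5 arrays and 0.19 and -0.06 on the Cy3 arrays. Replicate 4 stood above the other 3, which lay between -0.08 and 0.19. Without replicate 4 the fitted mean, which weighs both dye orientations alike and is not a plain mean, was -0.0075. The fitted dye component was then -0.073. The adjusted p of INCENP was 0.637 on all 4 arrays.

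As deposited, all 5 centromere and kinetochore genes had means above 0, against 9026 of all 18334 genes, and none passed. The fitted means of CENPA, CENPF and NUF2 crossed 0 with 1 array left out. Turned by dye, 2 of the 5 genes would be above 0 and 3 below. NDC80, the microtubule-binding subunit of the outer kinetochore, was at -0.10 and 0.52 on the Hy5 arrays and 0.70 and 0.085 on the Cy3 arrays. Its mean was 0.30 ± 0.37 (SD, n = 4) with a 95% interval of 0.0027 to 0.59 and an adjusted p of 0.530. Of its features on 1 transcript, one was above 0 on every array, at 0.07 and 0.14 on the Hy5 arrays and 0.20 and 0.26 on the Cy3 arrays, and the other ranged widely, at -0.27 and 0.89 on the Hy5 arrays and 1.19 and -0.09 on the Cy3 arrays. Turned by dye NDC80 would be at -0.091. NUF2, its partner in the same complex, had a mean of 0.048 and a dye component of 0.21. CENPA, the histone H3 variant that marks centromeres, had the lowest dye component of all members. It was at -0.88 and -1.05 on the Hy5 arrays and 1.12 and 0.86 on the Cy3 arrays, which cancel to a mean of 0.013, with a dye component of -0.98 (adjusted p = 9.88e-05). CENPF, a large protein of the outer kinetochore, had a mean of 0.038 and a dye component of -0.80. CENPE, the kinetochore kinesin, had a mean of 0.13 and a dye component of the other sign, 0.50. Turned by dye, CENPA would stand at 50.8% of control and CENPF at 57.4%, while CENPE would be 1.41-fold higher.

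Kinesins had means between -0.14 and 0.10. KIF11, the motor that pushes spindle poles apart, was at -0.26 and -0.46 on the Hy5 arrays and 0.04 and 0.10 on the Cy3 arrays, with a mean of -0.14 ± 0.26 (SD, n = 4), a limma adjusted p of 0.584 and a dye component of -0.21. Turned by dye it would pass as lower with the dye coefficient (adjusted p = 0.0393), but not where the intercept was fitted by itself (adjusted p = 0.0784). Its 2 features had means of -0.0025 and -0.29, so the mean came from the second. That feature was below 0 on all 4 arrays (-0.13 and -0.61 on the Hy5 arrays and -0.27 and -0.13 on the Cy3 arrays). The dye component came mainly from the first feature, at -0.34 (limma adjusted p = 0.00836 over all features). The second was at -0.085 (0.574). KIF2C, which depolymerises microtubules at centromeres, was at 0.76 and 0.80 on the Hy5 arrays and -0.72 and -0.66 on the Cy3 arrays, a mean of 0.045 and a dye component of 0.74 (adjusted p = 1.44e-04). KIF4A, a chromosome-bound motor, was at 0.75 and 0.42 on the Hy5 arrays and -0.57 and -0.47 on the Cy3 arrays, a mean of 0.033 and a dye component of 0.55. KIF2C and KIF4A were above 0 on both Hy5 arrays and below 0 on both Cy3 arrays, as were 31.3% of all genes. KIF20A and KIF23, motors of the central spindle, had means of 0.039 and 0.10 and dye components of 0.047 and 0.088, in that order, and neither would pass turned by dye.

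Of the genes for spindle assembly, 2 of 4, PRC1 and HMMR, had an unadjusted p under 0.05, against 9.37% of all genes and 9.30% of the 43 members, and both were above 0. PRC1, which bundles microtubules in the central spindle, was at 0.21 and -0.11 on the Hy5 arrays and 0.41 and 0.49 on the Cy3 arrays. Only replicate 4 was below 0, and the mean was 0.25 ± 0.27 (SD, n = 4), with an unadjusted p of 0.0125 and a limma adjusted p of 0.368. Turned by dye it would be at -0.20. HMMR, a spindle protein that also binds hyaluronan, was above 0 on each array, at 0.13 and 0.30 on the Hy5 arrays and 0.22 and 0.08 on the Cy3 arrays, with a mean of 0.18 ± 0.097 (SD, n = 4). Its unadjusted p was 0.0335 and its adjusted p 0.478, and its dye component was 0.033. NUSAP1, which stabilises spindle microtubules, was at -0.29 and 0.04 on the Hy5 arrays and 0.20 and -0.56 on the Cy3 arrays. Replicates within each orientation differed by more than the orientations did, and the mean was -0.15 ± 0.34 (SD, n = 4) with an adjusted p of 0.766. TPX2, the activator of AURKA, had a mean of -0.093 and a dye component of 0.51 and would pass as higher turned by dye. Cytokinesis genes were below 0 in the mean: ECT2, the exchange factor that activates RhoA at the midzone, at -0.0092 and ANLN, anillin of the contractile ring, at -0.12. Their dye components were -0.53 and -0.18. The fitted mean of ECT2 crossed 0 with 1 array left out, and 9308 of all 18334 genes had means below 0.

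Of the 43 members, 30 had 1 feature and 13 had several. In 10 of those 13 the features spanned a wider range in the dye component than in the mean. Among the 8 with 2 or 3 features this held for 5. The ranges were nearly equal in BIRC5 (0.17 against 0.16) and KIF20A (0.17 against 0.15). Over all genes too the dye component varied more than the mean (SD over genes 0.38 against 0.12). The share of all genes with a wider range in the dye component is not given here. CENPF showed the widest gap on 1 transcript. Its feature 6890 was at -1.54 and -1.35 on the Hy5 arrays and 2.04 and 0.83 on the Cy3 arrays, and its feature 28683 at -0.15 and -0.01 on the Hy5 arrays and 0.32 and 0.16 on the Cy3 arrays. The dye components were -1.44 and -0.16, while the means were -0.005 and 0.08. PLK1 was similar: feature 9210 was at 0.60 and 0.50 on the Hy5 arrays and -0.74 and -0.80 on the Cy3 arrays and feature 2704 at -0.16 and -0.05 on the Hy5 arrays and 0.14 and 0.06 on the Cy3 arrays, so their dye components had opposite signs (0.66 and -0.10) and their means were -0.11 and -0.0025. The 3 features of ECT2, all on 1 transcript, had dye components of -0.995, -0.46 and -0.14 and means of 0.055, -0.025 and -0.058. In BUB3, whose features cover 2 accessions, the dye components were -0.76, -0.28 and 0.098 and the means stayed between -0.088 and -0.0075. Over the 99 features, limma with dye orientation called 0 in the mean, against 0.0199% of all features. In the dye component it called 44 of the 99, against 37.3% of all features. These 44 are not 44 genes, as they include every CENPE feature and most BIRC5 features. The genes with a wider range in the mean were CCNB2, KIF11 and NDC80. Their 2 features had means 0.10, 0.28 and 0.26 apart and dye components 0.073, 0.26 and 0.058 apart, in that order.

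**Figure D4:**
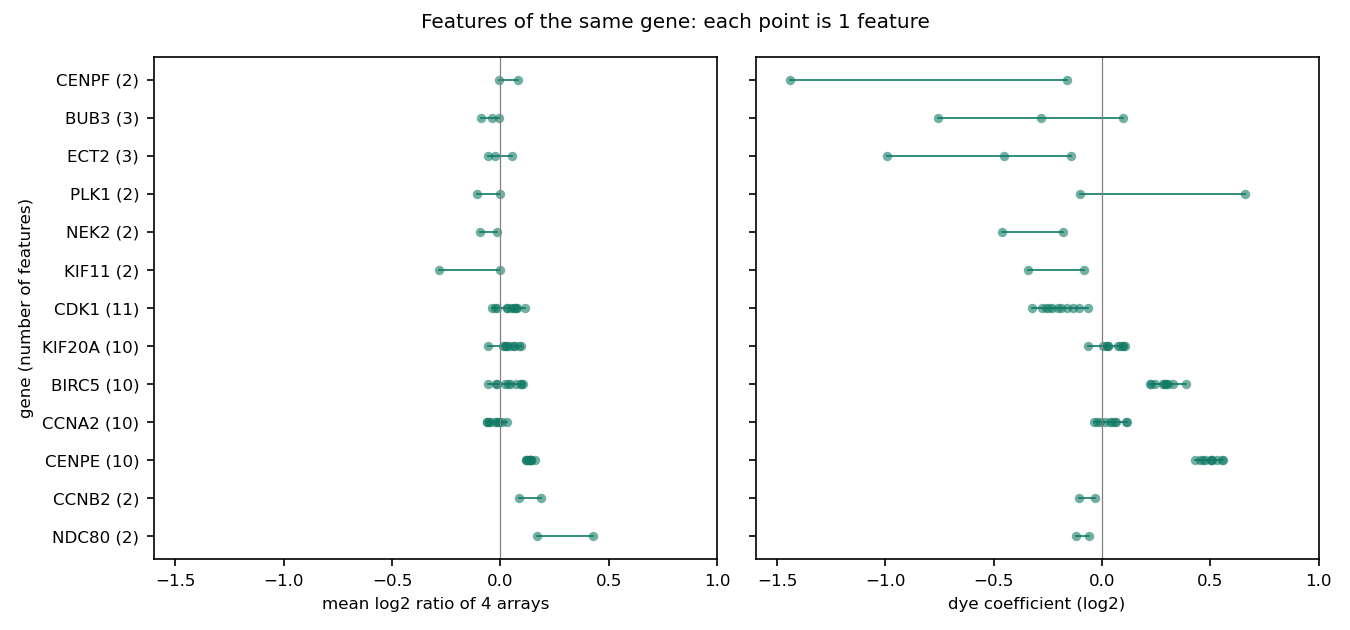
Mean log2 ratio of the 4 arrays (left) and dye component (right, log2) of every feature of the 13 genes with several features, with the number of features beside the gene. Features of CENPF, BUB3, ECT2 and PLK1 span 0.76 to 1.28 in the dye component and 0.08 to 0.11 in the mean.

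A set of 5 members, BIRC5, CCNA2, CDK1, CENPE and KIF20A, each had 10 features annotated to 1 transcript (CDK1 had 1 more, on another). Whether these are repeated spots of 1 probe is not given in the sources used here. The SD over the 10 features was 0.09 to 0.16 on replicate 4, against 0.03 to 0.11 on the other 3 arrays. BIRC5 spanned 0.31 to 0.39 on replicate 2 and 0.09 to 0.59 on replicate 4 (Hy5), and -0.30 to -0.18 on replicate 1 and -0.47 to -0.17 on replicate 3 (Cy3). CENPE spanned 0.45 to 0.58 and 0.62 to 0.91 on the Hy5 arrays and -0.44 to -0.26 and -0.43 to -0.28 on the Cy3 arrays, so its orientations were apart at every feature. CCNA2 spanned -0.05 to 0.11 and -0.19 to 0.21 on the Hy5 arrays and 0.02 to 0.30 and -0.27 to -0.04 on the Cy3 arrays, so its orientations overlapped. The spread over the 10 features of CENPE within an array was smaller than the gap between its orientations.

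Of 48 other mitosis genes, 0 were called (median -0.028), and 4 had an unadjusted p under 0.05. The nearest were KIF20B, a kinesin of cytokinesis, at -0.09 and -0.12 on the Hy5 arrays and 0.78 and 0.70 on the Cy3 arrays (mean 0.32, adjusted p = 0.217), and CENPN, a centromere protein, at 0.14 and 0.16 on the Hy5 arrays and 0.24 and 0.33 on the Cy3 arrays (mean 0.22, adjusted p = 0.368). CENPN was above 0 on all 4 arrays. Turned by dye, KIF20B would be at -0.42 (adjusted p = 0.00135) and CENPN at -0.071, both with the sign reversed. In that reading 15 of the 48 would pass as higher and 19 as lower, against 26.9% and 18.0% of all genes. Genes of the anaphase-promoting complex (APC/C), its subunits and the activator FZR1 (12 measured), had a median of 0.012 with 0 called. CDC27 was at 0.24 (-0.28 turned) and CDC23 at -0.23 (-0.57 turned). Cohesin and its regulators (10 measured) had a median of -0.052, with CDCA5 (sororin) at -0.18 (0.11 turned) and SMC1A at -0.15 (0.51 turned, adjusted p = 8.63e-04), and 0 called. Turned by dye, 3 of the 12 APC/C genes would pass as higher, FZR1 among them, and 5 as lower. Of the 10 cohesin genes, 2 would pass as higher and 3 as lower. Both lists stand against 26.9% and 18.0% of all genes.

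Regulators of G2/M transcription had a median of -0.022 over 17 measured genes, and 0 were called. CDKN1A, a CDK inhibitor that can lead to repression of these genes through DREAM, was at 0.67 and 0.94 on the Hy5 arrays and -0.15 and -0.02 on the Cy3 arrays (mean 0.36, adjusted p = 0.217). RBL2, the p130 pocket protein of DREAM, was at -0.13 and 0.30 on the Hy5 arrays and 0.37 and 0.30 on the Cy3 arrays (mean 0.21, adjusted p = 0.501, -0.12 turned), with replicate 2 alone below 0. Turned by dye, 2 of the 17 would pass as higher, among them CDKN1A (0.45, adjusted p = 0.00194), and 5 as lower. S phase genes (33 measured) had a median of -0.023 and 0 called, with FEN1, the flap endonuclease of lagging strands, at -0.30 (adjusted p = 0.368, 0.46 turned) and MCM6, a helicase subunit, at 0.23 (adjusted p = 0.368, 0.35 turned). Their dye components had a median of 0.16, against 0.028 for the mitosis members. Turned by dye, 13 of the 33 S phase genes would pass as higher and 6 as lower, against 26.9% and 18.0% of all genes. The difference between these lists was not tested.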

How the data were processed

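The authors deposited 1 log ratio per feature and array for 4 Agilent 2-colour arrays, taken here as log2. Per the labels' protocols, 200 ng of total RNA were amplified and labelled with cyanine CTP. Over all features each column had a mean of 0 (2 decimals) and a median of 0.03 and 0.02 on replicates 2 and 4 and -0.02 on both replicates 1 and 3. The sources used here do not give the scale, centring, direction, scanner software or normalization. There were 0 missing values and 0 unused columns. Signal over background is unknown, and the number of arrays limits precision. Features naming 1 gene (31332, with 31291 matched by Entrez identifier to RefSeq GRCh38.p14) were averaged per gene. Genes were tested across all 18334 with limma 3.58.1 in R 4.3.3 (lmFit and eBayes, intercept and dye orientation, Benjamini-Hochberg at 0.05). The code was tested on simulated data. Members, gene lists and this model were chosen with earlier results of these data known. The rule for array-by-array values took the 6 smallest p, the 4 highest and 4 lowest means, genes with 1 sign on all 4 arrays and the 3 most extreme dye components per direction. Of each other list it took the 2 genes with the smallest p. TOP2A, CCNB1, TTK, CDC20 and the features were added after their values were seen, as were the printed promoters. The smallest p of an exact sign-flip test over 4 arrays is 0.125.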

Additional observations from a re-analysis of the deposited data

Results flagged for a closer look

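In a group of 4 arrays, 1 gene named above had a single array far from the other 3 relative to its whole range. RBL2 had a log2 ratio of -0.125 on replicate 2, while the other arrays gave 0.30 to 0.37. The gap was looked for in 58 genes, where chance alone gives about 2.9, and in 0 of the 43 mitosis and G2/M genes was it found. The chance figure takes the arrays as alike. Arrays that split by dye widen the range and make such a gap harder to find, so the 0 says little about outlying arrays.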

How the results depend on the processing

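The direction of the columns decided most. Turned by dye, 20 of the 43 mean log ratios changed sign: BUB1 would be at -0.11, BUB1B 0.21, CCNA2 0.037, CCNB2 -0.069, CDC20 0.51, CDC25B 0.85, CDCA8 0.36, CDK1 -0.20, CENPA -0.98, CENPF -0.80, MKI67 0.11, NCAPD2 0.48, NCAPG -0.28, NDC80 -0.091, NUSAP1 0.028, PLK1 0.28, PRC1 -0.20, TOP2A -0.71, TPX2 0.51 and TTK -0.62. Members called would be 12 higher and 11 lower with the intercept alone, and 12 and 13 with a dye coefficient, and genes called over all genes 7700 and 8219. As deposited, no member passed under any setting tried, and the 43 kept their sign under equal scaling, feature medians, platform symbols, no moderation, robust moderation and the intercept alone, as did 42 under median centring, where TOP2A was at 0. Genes called over all genes were 4, against 0 with the intercept alone, 7 with columns centred on their median, 9 with columns scaled alike, 8 with feature medians and 7 with robust moderation. Members called on the dye component were 0 higher and 0 lower without moderation (5 genes over all genes), where each spread has 2 degrees of freedom. Leaving out 1 array gave 0 genes called each time, 8 to 13 members called higher and 6 to 12 lower on the dye component (6 lower without replicate 1 and 8 without replicate 4), and a median fitted member mean of -0.03 to 0.033. The shares of all genes called on the dye component in these fits are not given here. Means with 1 array left out are fitted values that weigh both dye orientations alike. They are not plain means of the remaining arrays and do not show how far those would move. With 1 array left out, the means of 23 members crossed 0, over these ranges: AURKB -0.035 to 0.13, BUB1 -0.013 to 0.17, BUB1B -0.20 to 0.018, BUB3 -0.12 to 0.033, CCNA2 -0.10 to 0.054, CCNB1 -0.14 to 0.013, CDC20 -0.053 to 0.038, CDCA8 -0.088 to 0.023, CDK1 -0.022 to 0.097, CENPA -0.053 to 0.078, CENPF -0.13 to 0.21, ECT2 -0.12 to 0.098, INCENP -0.0075 to 0.65, KIF20A -0.021 to 0.098, KIF4A -0.05 to 0.12, NCAPD2 -0.075 to 0.01, NEK2 -0.22 to 0.11, NUF2 -0.043 to 0.14, NUSAP1 -0.34 to 0.038, PTTG1 -0.068 to 0.14, SMC4 -0.17 to 0.11, TOP2A -0.078 to 0.083 and TPX2 -0.20 to 0.01. Each array is already a ratio of both groups, so the pairing of samples within an array is part of every fit, and no further pairing was added.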
